A study of Mus musculus with 12 samples.

Results

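The antioxidant and glutathione enzymes of the developing mouse lung were described across 4 time-points. They were taken from the deposited count table by gene symbol, as the superoxide dismutases, catalase, the numbered glutathione peroxidases, peroxiredoxins, thioredoxin reductases and glutathione S-transferases, and 10 further named genes of the same system (*Nfe2l2*, *Nqo1*, *Hmox1*, *Gclc*, *Gclm*, *Gss*, *Gsr*, *Txn1*, *Txn2* and *Srxn1*). This rule found 49 of the 16152 genes of the table. They comprise 17 cytosolic or mitochondrial glutathione S-transferases, 12 genes of the peroxiredoxin and thioredoxin system, 7 of the catalase and glutathione peroxidase group, 4 of glutathione synthesis and recycling, 3 superoxide dismutases, 3 microsomal transferases, and NRF2 (*Nfe2l2*) with its textbook targets *Nqo1* and *Hmox1*. A further 8 genes with matching symbols, such as *Gsta1*, *Gsta2* and *Gstm3*, were listed only in the larger table of depth-scaled read counts (CPM, counts relative to the mapped reads), none above 1.07 CPM in any library, and were not tested.

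Superoxide dismutases turn superoxide into hydrogen peroxide, which catalase, the glutathione peroxidases and the peroxiredoxins then reduce. Glutathione reductase and the thioredoxin reductases return glutathione and thioredoxin to their reduced forms at the expense of NADPH, and the glutathione S-transferases join glutathione to reactive compounds. The transcription factor NRF2 drives many of these genes through the antioxidant response element, and extracellular superoxide dismutase is known as an abundant enzyme of the lung and of blood vessel walls.

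RNA was sequenced from whole lungs of wild-type C57Bl/6 mice of both sexes, untreated, at embryonic days E15.5 and E18.5 and postnatal days P5 and P8, with 3 libraries per time-point and 12 in all. The E15.5 and E18.5 lungs are from before birth and the P5 and P8 lungs from after it. The 3 libraries of a time-point came from littermates, so that litter and time-point cannot be told apart, and the p-values measure only the spread among littermates. The libraries held 41337443 to 53901957 counted reads, and values below are CPM of each library, as replicates 1, 2 and 3, or mean ± SD (n = 3).

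In whole-lung RNA, fewer cells of a type and less RNA per cell cannot be told apart. The 7 alveolar type 2 (AT2) marker genes summed to 603 to 860.3 CPM (E15.5), 1258 to 2165 (E18.5), 16120 to 18810 (P5) and 14040 to 16780 (P8), and 6 or 7 of the 7 were at 1 CPM or more in every library. Some libraries also had more RNA of marker genes of other tissues than others of their time-point, and its source was not tested. The 5 heart muscle genes (*Myh6*, *Actc1*, *Nppa*, *Myl7* and *Tnnt2*) summed to 933, 1170 and 52.1 CPM in the E15.5 libraries, and the 5 genes of oesophagus and other squamous epithelium (*Krt5*, *Krt13*, *Krt4*, *Krt6a* and *Dsg3*) to 803, 616 and 4.14 CPM at P8. The 8 T cell and thymus genes summed to 0.823, 29.1 and 0.59 CPM at E15.5 and 159, 309 and 16.3 CPM in the P8 libraries. The 5 liver genes (*Alb*, *Afp*, *Apoa1*, *Ttr* and *Fgb*) summed to 2.15, 2.07 and 2.81 CPM at P5 and 10.9, 105.9 and 34.8 at P8. At P8 the heart muscle genes summed to 110.7, 313.5 and 93.5 CPM. Calls of members that were lost without the libraries highest in heart muscle or thymus genes are given with and without them, below or among the processing alternatives. No alternative was set by the liver genes.

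Most of the change in these genes lay between E18.5 and P5, the interval that includes birth, and it was mostly upward. Calls required a log2 fold change beyond 1 in either direction and a false discovery rate (FDR, Benjamini-Hochberg over all 15994 genes tested) under 0.05 in edgeR's quasi-likelihood test. All 49 members passed the filter on low counts. *Sod3*, *Gsta3*, *Gstp3* and *Mgst2* passed it only with their postnatal libraries, where they were high. Their place among the genes tested thus depended on that level. From E18.5 to P5, 12 members (24.5%) were called higher and 0 lower, beside 17.5% and 9.34% of all genes tested. The 12 were *Sod3*, *Cat*, *Srxn1*, *Txnrd3*, *Gsta3*, *Gstm1*, *Gstm6*, *Gsto1*, *Gstp3*, *Gstt1*, *Mgst1* and *Mgst2*, of which 8 are glutathione S-transferases. On FDR alone, 26 members (53.1%) were higher and 8 (16.3%) lower, where 35.4% of all genes were higher and 35.7% lower. The median log2 fold change of the 49 was 0.30, and that of all genes tested was -0.002.

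The intervals on either side of birth were quieter. From E15.5 to E18.5, 1 member (*Gstp3*) was called higher and 2 (*Gpx2* and *Gsta3*) lower, beside 1.59% and 1.46% of all genes, and on FDR alone 6 were higher and 6 lower (12.2% each, against 11.6% and 9.87% of all genes). This count rested on single libraries: it was 1 without E15.5 replicate 1 or without E18.5 replicate 2, and 5 without E15.5 replicate 3. From P5 to P8, *Gsta4* and *Gsto1* were called higher and none lower, beside 2.88% and 0.0875% of all genes, and without the 3 libraries highest in thymus genes neither was called. On FDR alone 8 were higher and 4 lower over that interval (16.3% and 8.16%, against 9.75% and 8.21% of all genes). The median log2 fold changes were -0.08 and 0.08 over these intervals, beside -0.008 and -0.001 for all genes.

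Over the whole period from E15.5 to P8, 14 members (28.6%) were called higher and 2 (4.08%) lower, beside 20.9% and 11.5% of all genes. On FDR alone, 27 were higher and 12 lower (55.1% and 24.5%, against 37.6% and 38.7% of all genes), and the median log2 fold change was 0.57 beside -0.024 for all genes. When the 4 time-points were tested together, 42 of the 49 (85.7%) differed at an edgeR FDR under 0.05, close to the 84.8% of all genes. The 7 that did not were *Sod1*, *Gpx3*, *Prdx3*, *Txnrd2*, *Gstm4*, *Gstp2* and *Gstz1*.

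**Figure D1:**
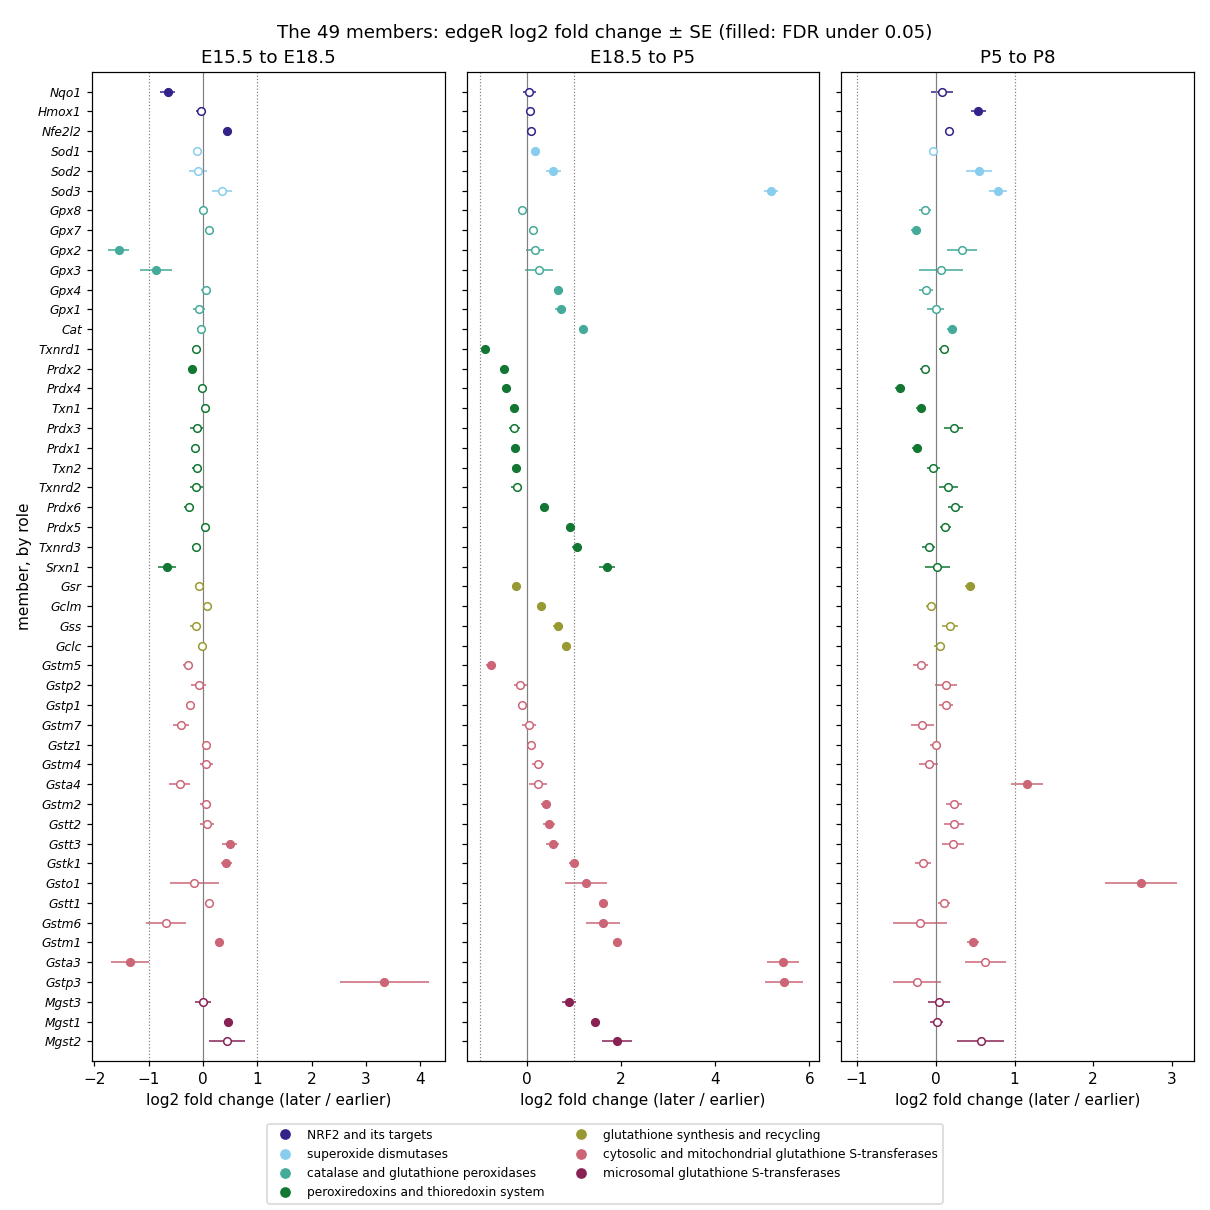
Log2 fold change (later over earlier time-point, x axis) of each of the 49 members in the 3 comparisons of adjacent time-points, with bars for the SE of the edgeR fit, filled points for an FDR under 0.05 and dotted lines at a log2 fold change of 1 and -1. In the middle panel 26 filled points lie to the right and 8 to the left, and 6 of those 8 belong to the peroxiredoxin and thioredoxin system.

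Promoters of 42 of the 49 members were read from RefSeq (build GRCm38.p6) as windows of 250 bases before and 50 after each transcription start. The core of the antioxidant response element was searched as TGANNNNGC and in the stricter form TGACNNNGC, on both strands. Every match of the second is also a match of the first. The first was found in a window of 21 of the 42 members (50%) and of 45.05% of the 27025 genes in the RefSeq table, and the second in 10 of the 42 (23.81%) and 13.99% of all genes. Such a match is a description of the letters. The sequences below, chosen after the values were seen, run from base -250 up to the first annotated exon for 4 members that rose after birth, *Srxn1*, *Gsta3*, *Gstp3* and *Cat*, and for 2 that fell, *Gstm5* and *Prdx1*, with each match of TGANNNNGC in capitals.
Srxn1 (chr2:152105274-152105515, + strand): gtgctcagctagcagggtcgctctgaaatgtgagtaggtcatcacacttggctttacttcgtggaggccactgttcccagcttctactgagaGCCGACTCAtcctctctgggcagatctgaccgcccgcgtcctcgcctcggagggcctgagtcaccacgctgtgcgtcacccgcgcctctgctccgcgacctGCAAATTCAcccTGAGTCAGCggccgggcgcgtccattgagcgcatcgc
Gsta3 (chr1:21240335-21240584, + strand): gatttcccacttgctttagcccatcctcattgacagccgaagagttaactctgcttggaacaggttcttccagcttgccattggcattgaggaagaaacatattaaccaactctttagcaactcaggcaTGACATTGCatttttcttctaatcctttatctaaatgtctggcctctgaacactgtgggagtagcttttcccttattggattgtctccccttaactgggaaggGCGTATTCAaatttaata
Gstp3 (chr19:4059570-4059697, - strand): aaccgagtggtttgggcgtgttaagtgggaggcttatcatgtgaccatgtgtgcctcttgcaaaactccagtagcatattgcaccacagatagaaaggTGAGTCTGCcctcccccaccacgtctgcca
Cat (chr2:103485161-103485403, - strand): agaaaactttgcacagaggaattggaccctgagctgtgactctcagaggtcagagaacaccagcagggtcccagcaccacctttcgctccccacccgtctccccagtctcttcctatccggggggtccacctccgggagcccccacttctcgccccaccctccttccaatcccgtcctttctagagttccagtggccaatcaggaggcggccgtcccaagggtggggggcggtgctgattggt
Gstm5 (chr3:107895604-107895820, + strand): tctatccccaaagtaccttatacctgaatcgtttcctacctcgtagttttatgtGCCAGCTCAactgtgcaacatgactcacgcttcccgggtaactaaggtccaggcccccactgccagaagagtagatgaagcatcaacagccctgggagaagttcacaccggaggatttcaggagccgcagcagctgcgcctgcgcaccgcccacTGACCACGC
Prdx1 (chr4:116685349-116685543, + strand): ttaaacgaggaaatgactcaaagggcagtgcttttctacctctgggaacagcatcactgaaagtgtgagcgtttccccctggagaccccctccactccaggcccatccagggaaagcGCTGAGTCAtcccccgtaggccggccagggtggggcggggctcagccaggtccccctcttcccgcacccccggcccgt

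The matches in *Srxn1* began 158, 57 and 45 bases before the start site, with another that began at base 29 after it. *Prdx1* had a match that began 133 bases before the start site and another that began at base 16 after it. *Gsta3* had matches at 121 and 18 bases before its start site, *Gstp3* at 152 and 7, and *Gstm5* at 196 and 42. Those of *Srxn1* at base 29, *Prdx1* at base 16 and *Gstp3* at 7 bases before lie past the stretches shown. Matches were thus present in promoters of members that rose and of members that fell, and the *Cat* window held none.

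*Nfe2l2*, which encodes NRF2 itself, was at 80 ± 2.38 CPM (E15.5) and 108 ± 6.02 CPM (E18.5), a rise before birth (log2 fold change 0.44, SE 0.058, edgeR FDR = 9.3e-04). It stood at 108 ± 1.8 CPM at P5, with no change past the FDR threshold from E18.5 (log2 fold change 0.09), and at 124 ± 8.55 at P8. Its quinone reductase target *Nqo1* moved the other way over the first interval, from 8.24 ± 0.511 to 5.25 ± 0.842 CPM (log2 fold change -0.65, SE 0.14, edgeR FDR = 0.0079), and was at 5.48 ± 0.404 CPM at P8. *Hmox1*, the inducible heme oxygenase, was level until P5 at 33.8, 32.9 and 32.3 CPM and rose to 47.7 ± 1.93 CPM at P8 (log2 fold change 0.54, SE 0.093, edgeR FDR = 0.0044). None of the 3 was called with the fold change cutoff in any of these comparisons.

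The superoxide dismutases differed sharply in their course. *Sod3* (ENSMUSG00000072941, chr5:52363791-52371418 in GENCODE's annotation of GRCm38, the mm10 build), the secreted enzyme, was low before birth, at 0.662, 0.767 and 0.728 CPM (E15.5) and 0.883, 0.823 and 1.02 CPM (E18.5). It was at 30.5, 34.8 and 28.7 CPM at P5 and 50.8, 66.4 and 47.2 at P8. All 6 postnatal libraries lay above all 6 prenatal libraries by more than an order of magnitude, and the P8 libraries lay above those of P5. The rise from E18.5 to P5 was 36.4-fold (log2 fold change 5.19, SE 0.15, edgeR FDR = 2.0e-10), and a further rise followed to P8 (log2 fold change 0.79, SE 0.12, edgeR FDR = 0.0021).

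*Sod2*, the mitochondrial manganese enzyme, was at 47.4, 50.5 and 40.2 CPM (E15.5), 39.9, 42.4 and 46.5 (E18.5), 55.4, 62.1 and 61.5 (P5) and 83.9, 115 and 65.3 (P8). It was past the FDR threshold in both postnatal steps (log2 fold changes 0.56 and then 0.55) and called from E15.5 to P8 (log2 fold change 1.01, SE 0.16, edgeR FDR = 7.0e-05). Without the 3 libraries highest in thymus genes the log2 fold change from P5 to P8 was 0.11. The call from E15.5 to P8 also rested on the P8 libraries that held thymus genes, since the log2 fold change was 0.8 without P8 replicate 2 and 0.66 without those 3 libraries. It was 0.93 without E15.5 replicate 3. P8 replicate 2 was also the P8 library highest in heart muscle and liver genes. *Sod1*, the cytosolic copper and zinc enzyme, was at 241, 235 and 234 CPM (E15.5), 218, 220.4 and 215 (E18.5), 215, 242 and 231 (P5) and 230.4, 224 and 219 (P8). Its libraries overlapped between P5 and each other time-point, and the 4 time-points tested together did not pass the FDR threshold. The step from E18.5 to P5 did, by a small difference (log2 fold change 0.16, SE 0.052, edgeR FDR = 0.017). At the level of mean CPM per kilobase of exon, *Sod1* was at 54.9 at E18.5 and 56.5 at P8, whereas *Sod3* was at 0.244 and 14.7.

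Catalase (*Cat*, ENSMUSG00000027187, chr2:103453849-103485160), which breaks down hydrogen peroxide in peroxisomes, was at 98, 93.3 and 97.2 CPM (E15.5), 91.6, 98 and 91.9 (E18.5), 204, 195 and 198 (P5) and 214, 249.8 and 232 (P8). The prenatal libraries were tightly grouped and each postnatal library lay well above them. *Cat* rose 2.26-fold from E18.5 to P5 (log2 fold change 1.18, SE 0.057, edgeR FDR = 5.9e-09).

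The glutathione peroxidases followed several courses. *Gpx1*, the main cytosolic form, was at 159, 158 and 141, then 139.6, 147 and 146, 261, 199.7 and 204 and 247, 211 and 215 CPM at the 4 time-points in order. *Gpx4*, which reduces lipid hydroperoxides, was at 178, 179 and 156, then 173, 192 and 165, 253, 251 and 278 and 252, 257 and 213 CPM. For these forms every postnatal library lay above every prenatal library, with log2 fold changes of 0.71 and 0.65 from E18.5 to P5, past the FDR but not the fold change cutoff. *Gpx2*, the form typical of gut and other epithelia, went down before birth, from 14.2, 12.1 and 15 CPM (E15.5) to 4.35, 3.48 and 6.19 CPM (E18.5) (log2 fold change -1.55, SE 0.19, edgeR FDR = 7.7e-04). It was at 4.54, 5.14 and 5.08 CPM at P5 and 6.98, 6.37 and 5.34 at P8, so that all later libraries lay below all E15.5 libraries. Its call from E15.5 to P8 (log2 fold change -1.07) was lost without E15.5 replicate 3 (-0.99) or P8 replicate 3 (-0.96), each just short of the fold change cutoff.

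*Gpx3*, the secreted plasma form, was at 146, 177 and 57.9 CPM (E15.5) and 71.7, 68 and 68.4 CPM (E18.5). E15.5 replicates 1 and 2 were high and replicate 3 was below every E18.5 library. Those replicates were also the libraries high in heart muscle genes, with *Nppa* at 41.1, 51.7 and 0.216 CPM and *Myh6* at 196, 172 and 5.84 CPM in replicates 1, 2 and 3, and 5, 5 and 4 of the 5 listed heart genes at 1 CPM or more. The log2 fold change of *Gpx3* from E15.5 to E18.5 was -0.86 (edgeR FDR = 0.05 after rounding) with all libraries, -1.21 without E15.5 replicate 3, and 0.25 without replicates 1 and 2, an alternative added after the data were seen. From E15.5 to P8 it was -0.54 with all libraries and 0.58 without those replicates. The part of heart tissue in this value was not tested beyond leaving the libraries out. *Gpx7* and *Gpx8*, which reside in the endoplasmic reticulum, changed little, between 40.3 and 47.5 CPM and between 56.1 and 70.4 CPM in the means of the time-points. *Gpx7* fell by 0.25 on the log2 scale from P5 to P8 (edgeR FDR = 0.023), and *Gpx8* fell by 0.25 on the log2 scale from E15.5 to P8 (edgeR FDR = 0.0086). That log2 fold change of *Gpx8* was -0.33 without E15.5 replicate 3 and -0.1 without E15.5 replicates 1 and 2.

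An alternative exon of *Gpx8* was among the splicing events quantified by the authors, as percent spliced in (PSI), the share of the reads at an exon that include it. PSI was 77.5, 79.5 and 80.0% at E15.5 and 87.9, 80.0 and 80.1% at E18.5. It was 64.3, 67.7 and 63.3% at P5 and 72.8, 71.0 and 72.7% at P8, from 877 to 1681 reads per library. The postnatal libraries all lay below the prenatal libraries, with the lowest values at P5. The study chose this event on these libraries, so the values are a description and no test is given.

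**Figure D2:**
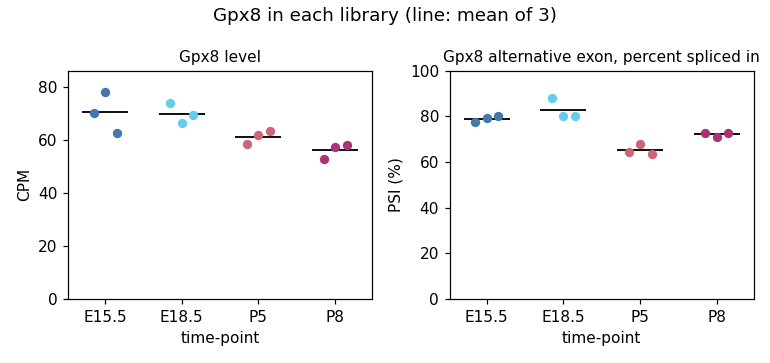
CPM of *Gpx8* (left) and PSI of its alternative exon in percent (right) in each of the 12 libraries by time-point, with a line at the mean of 3. Mean PSI was 82.7% at E18.5 and 65.1% at P5, whereas mean CPM was 70 and 61.2.

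The peroxiredoxin and thioredoxin system held both members that fell and members that rose. Of its 12 members, 6 were lower and 4 higher at P5 than at E18.5 on FDR alone, where 35.7% of all genes were lower and 35.4% higher. The 6 that fell were *Txnrd1*, *Prdx1*, *Prdx2*, *Prdx4*, *Txn1* and *Txn2*, and the same 6 were lower at P8 than at E15.5. *Prdx1*, a cytosolic peroxidase, was at 497, 527 and 478 CPM (E15.5), 425, 468 and 462 (E18.5), 345, 347 and 370.5 (P5) and 304, 309 and 296 (P8). Each postnatal library lay below each prenatal library and each P8 library below each P5 library (log2 fold change -0.26, SE 0.058, edgeR FDR = 0.0013 from E18.5 to P5). *Prdx2*, the peroxiredoxin best known from red blood cells, was at 332, 358 and 334, then 284, 292 and 309, 202, 192 and 195 and 182, 180.2 and 178 CPM at the 4 time-points. Its groups of libraries did not overlap from E15.5 to P8 (log2 fold change -0.84, SE 0.059, edgeR FDR = 5.3e-08), while the 9 erythroid marker genes summed to 4055 to 5234 CPM at E15.5 and 10490 to 14780 CPM in the P8 libraries. The erythroid genes were not uniform: the embryonic globins *Hbb-y* (240.4, 283 and 263 CPM at E15.5 and 1.35, 0.866 and 0.148 at P8) and *Hbb-bh1* (5.07, 4.11 and 3.23 and 0.0205, 0.0653 and 0 CPM) were lower at P8, as *Prdx2* was, while the rest of the list was higher. The part of red blood cells in the fall of *Prdx2* was not tested.

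*Prdx4*, the peroxiredoxin of the secretory pathway, fell in both postnatal steps, with means of 137 ± 8.44 (E18.5), 95 ± 5.92 (P5) and 70.1 ± 0.967 CPM (P8) (log2 fold changes -0.44 and -0.46). Thioredoxin itself, *Txn1*, had the highest level of the members per kilobase of exon in the mean of all libraries, at 212 CPM per kilobase at E15.5. At P8 it was at 149, below *Gsto1* (172, which P8 replicates 1 and 2 set) and *Gpx1* (156). It was at 235, 222 and 212 CPM (E15.5), 223, 226 and 234 (E18.5), 176, 168 and 185 (P5) and 157, 162 and 150.4 (P8), so that all postnatal libraries were below all prenatal ones. The log2 fold change was -0.28 from E18.5 to P5 (edgeR FDR = 8.0e-04). *Txn2*, the mitochondrial thioredoxin, fell by 0.23 on the log2 scale over the same step (edgeR FDR = 0.027).

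The thioredoxin reductases went in different directions. *Txnrd1*, the cytosolic form, was at 219.7, 219.8 and 219.7 CPM (E15.5), 192, 195 and 219 (E18.5), 103, 104 and 100.5 (P5) and 108, 114 and 112 (P8). The step down between E18.5 and P5 (log2 fold change -0.89, SE 0.054, edgeR FDR = 2.9e-08) was the largest fall of any member over that interval. *Txnrd3*, the form known for its high level in testis, was at 12.2, 14.1 and 11.9 CPM (E15.5), 11.5, 11.3 and 12.2 (E18.5), 22.2, 23.1 and 22.7 (P5) and 22.4, 20.3 and 21.9 (P8), and all postnatal libraries were above all prenatal ones (log2 fold change 1.05, SE 0.088, edgeR FDR = 4.0e-07 from E18.5 to P5). The mitochondrial *Txnrd2* was at 12.6 ± 1.5 CPM at E15.5 and 10.5 ± 1.2 CPM in the P8 libraries and did not pass the FDR threshold over the time-points.

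Among the members that rose, *Srxn1*, the sulfiredoxin that repairs overoxidised peroxiredoxins and whose promoter held 4 matches above, had its lowest level at E18.5. It was at 9.01, 10.4 and 10.2 CPM (E15.5), 4.41, 7.58 and 6.7 (E18.5), 20.3, 18.4 and 17.8 (P5) and 20.1, 20.9 and 17 (P8). No postnatal library overlapped a prenatal one, and the rise from E18.5 to P5 was 3.22-fold (log2 fold change 1.69, SE 0.17, edgeR FDR = 2.1e-06). From E15.5 to P8 the log2 fold change was 1.05, and 0.98 without E15.5 replicate 1 and 0.99 without P8 replicate 1, which put it just below the fold change cutoff. It was 0.9 without the 3 libraries highest in thymus genes and 0.98 without the 2 highest in heart muscle genes. *Prdx5*, found in mitochondria, peroxisomes and cytosol, was at 73.2, 78.5 and 70.1 CPM (E15.5), 72.7, 84.5 and 70.3 (E18.5), 132, 131 and 138 (P5) and 148, 153 and 142 (P8), with the rise between E18.5 and P5 (log2 fold change 0.91, SE 0.072, edgeR FDR = 2.5e-07) and a call from E15.5 to P8 (log2 fold change 1.07). *Prdx6*, which also has phospholipase activity and is abundant in lung epithelium, was lowest at E18.5, with 192, 196 and 210.2 CPM (E15.5), 164, 147 and 185 (E18.5), 198, 222 and 181 (P5) and 235, 234 and 252 (P8). Its E18.5 and P5 libraries overlapped (log2 fold change 0.36, SE 0.09, edgeR FDR = 0.003). *Prdx3*, the mitochondrial peroxiredoxin, was at 67.9 ± 7.91 CPM at E15.5 and 58.3 ± 12.8 CPM in the P8 libraries and passed no threshold.

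The 5 proliferation genes (*Mki67*, *Top2a*, *Cdk1*, *Ccnb1* and *Birc5*) also fell between E18.5 and P5, from summed levels of 1302 to 1379 CPM to 478 to 503. Their part in the falls of *Txnrd1*, *Prdx1*, *Prdx2*, *Prdx4*, *Txn1* and *Txn2* was not tested. *Prdx2* and *Prdx5* each share exonic bases with genes on the opposite strand (*Junb* and *Rnaseh2a*, and *Trmt112*), and whether the counting used strand is not given in the sources used here.

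**Figure D3:**
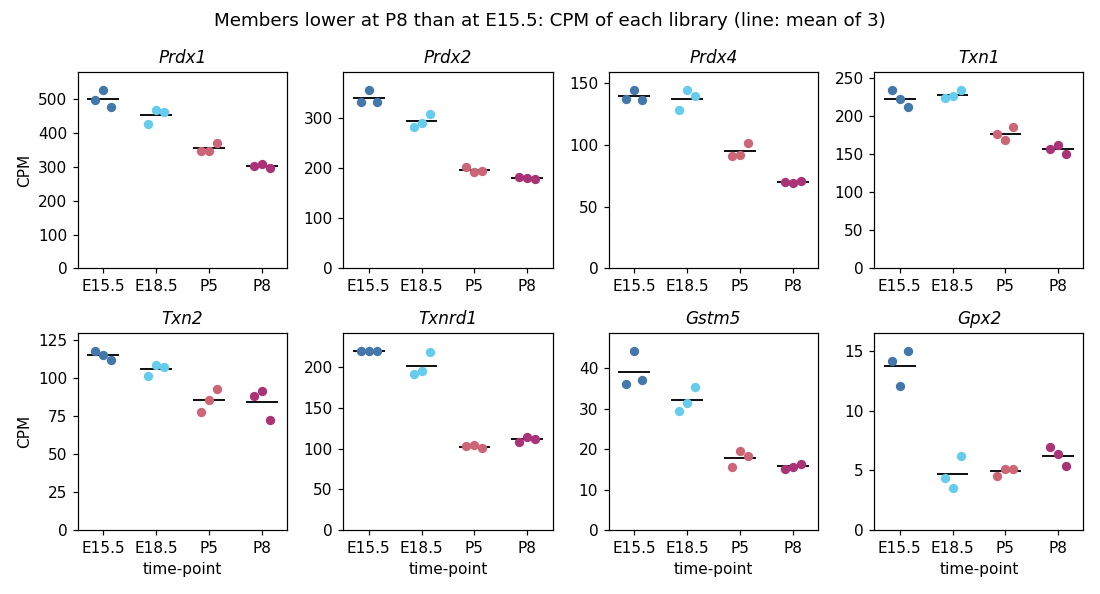
CPM of each library (points, 3 per time-point, with a line at the mean) for 8 members that were lower at P8 than at E15.5, with the y axes from 0. *Txnrd1* stands at 202 CPM at E18.5 and 102 at P5, and *Gpx2* makes its step down before birth.

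Of the 4 genes of glutathione synthesis and recycling, 3 were higher and 1 lower at P5 than at E18.5 on FDR alone. Of all genes, 35.4% were higher and 35.7% lower, and none of the 4 was called with the fold change cutoff. *Gclc*, the catalytic subunit of the rate-limiting ligase, went from 41.5 ± 3.17 to 68.8 ± 3.99 CPM (log2 fold change 0.82, SE 0.074, edgeR FDR = 8.0e-07). Its modifier subunit *Gclm* changed less, from 46.4 ± 0.937 to 53.7 ± 1.76 CPM (log2 fold change 0.30), and glutathione synthetase, *Gss*, went from 13.2 ± 1.65 to 19.7 ± 1.84 CPM (log2 fold change 0.66). Glutathione reductase, *Gsr*, fell from 61.1 ± 2.27 CPM to 48.9 ± 1.8 at P5 (log2 fold change -0.24, SE 0.064, edgeR FDR = 0.0056) and was back at 67.4 ± 4.66 CPM at P8 (log2 fold change 0.44, SE 0.064, edgeR FDR = 0.002). *Gss* and *Gclm* overlap other annotated genes, so that part of their reads may not be their own.

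The glutathione S-transferases held 6 of the 12 calls from E18.5 to P5, or 8 with the microsomal forms. These were 35.3% of the 17 cytosolic or mitochondrial forms and 66.7% of the 3 microsomal forms, beside 17.5% of all genes called higher. Of the 8, *Gsta3*, *Gstp3* and *Mgst2* passed the filter on low counts only with their postnatal libraries, where they were high. These shares thus rest in part on that filter. In the alpha class, *Gsta3* (ENSMUSG00000025934, chr1:21240589-21265661) was at 1.21, 1.61 and 0.511 CPM (E15.5), 0.616, 0.421 and 0.275 (E18.5), 16.5, 17.4 and 19.5 (P5) and 26, 28.2 and 29.6 (P8). The 3 time-point groups from E18.5 on did not overlap, and the rise from E18.5 to P5 was 43.3-fold (log2 fold change 5.44, SE 0.34, edgeR FDR = 3.7e-08). The step from P5 to P8 did not pass the FDR threshold (log2 fold change 0.63, SE 0.26, edgeR FDR = 0.11). The fall from E15.5 to E18.5 (log2 fold change -1.35, edgeR FDR = 0.019) was not stable. Its edgeR FDR was 0.054 without E15.5 replicate 1, 0.068 without E15.5 replicate 2, 0.063 without E18.5 replicate 2 and 0.06 without E18.5 replicate 3, and the log2 fold change was -0.24 without E15.5 replicates 1 and 2, which were also those high in heart muscle genes. Without the 3 libraries highest in thymus genes it was -1.01 (edgeR FDR = 0.082).

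*Gsta4*, which acts on lipid peroxidation products such as hydroxynonenal, was at 29, 33.5 and 27.8 CPM (E15.5), 24.7, 20 and 22.2 (E18.5), 22.7, 31 and 20.4 (P5) and 64.2, 64.2 and 38.6 (P8). The P8 libraries lay above all others, replicates 1 and 2 far more so than replicate 3. *Gsto1*, of the omega class, which reduces dehydroascorbate and other substrates, showed this to a greater degree. It was at 29.9, 31.2 and 24.7 CPM (E15.5), 25.7, 24.2 and 26.3 (E18.5), 52.2, 62 and 56.6 (P5) and 508, 454 and 83.4 (P8), where replicates 1 and 2 were more than 5 times as high as replicate 3.

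P8 replicates 1 and 2 were the libraries high in squamous and thymus genes. *Krt13* was at 334, 256 and 0.887 CPM and *Krt4* at 370.1, 278 and 2.25 CPM in the 3 P8 libraries, and the thymocyte recombinase gene *Rag1* at 77.8, 156 and 4.19 CPM. All 5 squamous genes were at 1 CPM or more in replicates 1 and 2 and 1 of the 5 in replicate 3, and *Krt6a* and *Dsg3* were at 0 in all 3 P5 libraries. With all libraries, *Gsto1* rose from P5 to P8 (log2 fold change 2.61, SE 0.46, edgeR FDR = 0.005), as did *Gsta4* (log2 fold change 1.16, SE 0.2, edgeR FDR = 0.0041). Without E15.5 replicate 2 and P8 replicates 1 and 2, which leaves a lone P8 library that is taken to vary like the other groups, the log2 fold changes were 0.53 for *Gsto1* (edgeR FDR = 0.034) and 0.62 for *Gsta4* (edgeR FDR = 0.099). From E15.5 to P8 the log2 fold change of *Gsto1* was 3.69 with all libraries and 1.69 without these 3. The part of squamous or thymus tissue in these values was not tested beyond leaving the libraries out. The earlier rise of *Gsto1* from E18.5 to P5 (log2 fold change 1.25, SE 0.45, edgeR FDR = 0.026) compares libraries other than those of P8, which enter it through the shared estimate of spread. The P5 libraries lay clear of the E18.5 libraries, and with these 2 time-points fitted alone the edgeR FDR was 7.2e-08. In the fit of all time-points its edgeR FDR passed 0.05 upon leaving out E18.5 replicate 1 (0.062), 2 (0.069) or 3 (0.06) or P5 replicate 2 (0.059), while the log2 fold change was between 1.19 and 1.28 in the leave-one-out fits.

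**Figure D4:**
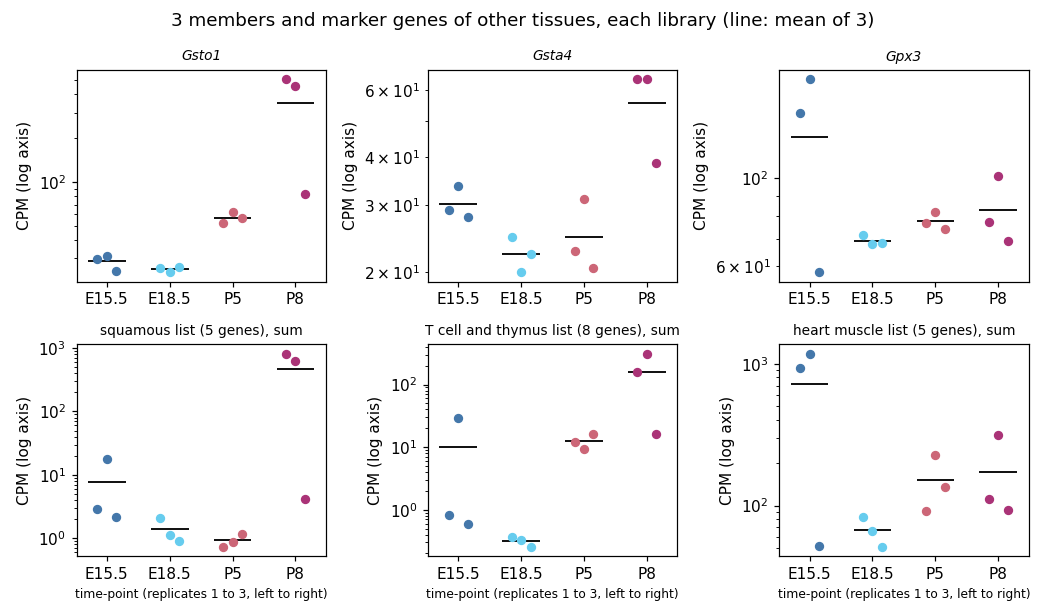
CPM of *Gsto1*, *Gsta4* and *Gpx3* (top) and the summed CPM of the squamous, thymus and heart muscle marker lists (bottom) in each library on log axes, with a line at the mean of 3. P8 replicates 1 and 2 stand above replicate 3 for *Gsto1*, *Gsta4* and the squamous and thymus sums, and E15.5 replicates 1 and 2 above replicate 3 for *Gpx3* and the heart muscle sum.

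The mu class genes lie side by side on chromosome 3 and are close in sequence, so that reads could be split or lost among them. *Gstm1* (chr3:108012255-108017973) was at 17.6, 16.8 and 17.3 CPM (E15.5), 21.6, 21.8 and 19.9 (E18.5), 76.1, 79.9 and 68 (P5) and 102, 102 and 109.8 (P8). Its libraries did not overlap between any pair of time-points, with a 3.77-fold rise from E18.5 to P5 (log2 fold change 1.91, SE 0.076, edgeR FDR = 1.6e-09) and further rises on either side. *Gstm5* (chr3:107895821-107898686) went the other way, at 36.2, 44.2 and 37.1 CPM (E15.5), 29.4, 31.5 and 35.5 (E18.5), 15.49, 19.5 and 18.3 (P5) and 15.2, 15.7 and 16.4 (P8). All postnatal libraries were below all prenatal ones (log2 fold change -1.24, SE 0.096, edgeR FDR = 1.3e-07 from E15.5 to P8), and its exons share 178 bases with *4933431E20Rik* on the opposite strand.

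*Gstm6* was low throughout, at 1.95, 2.04 and 0.688 CPM (E15.5), 0.78, 0.919 and 1.21 (E18.5), 2.94, 3.18 and 2.3 (P5) and 2.81, 2.3 and 2.29 (P8), and rose from E18.5 to P5 (log2 fold change 1.62, SE 0.36, edgeR FDR = 0.0013). Its E15.5 replicates 1 and 2 were again above replicate 3. Its log2 fold change from E15.5 to P8 was 0.74 and not called with all libraries, and it was 1.9 and called without those replicates. *Gstm2* rose less, from 47.1 ± 3.97 to 58.7 ± 7.04 CPM (log2 fold change 0.40), *Gstm7* fell by 0.53 on the log2 scale from E15.5 to P8 (edgeR FDR = 0.0055), and *Gstm4* stayed between 11.3 and 13 CPM in the means.

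The pi class is a cluster of near-copies on chromosome 19, with the same limit on counting. *Gstp1* was at 75.1 ± 3.36 CPM at E15.5 and 61.8 ± 2.77 CPM in the P8 libraries (log2 fold change -0.20, edgeR FDR = 0.046), and *Gstp2* at 17.4 ± 0.349 and 15.4 ± 1.82 CPM. *Gstp3* (chr19:4057477-4059569) was all but absent before birth. It was at 0, 0.0197 and 0 CPM (E15.5), 0.0411, 0.134 and 0.0732 (E18.5), 3.1, 4.42 and 3.12 (P5) and 3.28, 2.73 and 3.06 (P8). This rests on 1 read in the 3 E15.5 libraries together, 13 in those of E18.5, 597 in those of P5 and 513 in those of P8. As a ratio of reads per mapped read, the rise from E18.5 to P5 was 41.6-fold (95% exact counting interval 24.2 to 78.7, edgeR FDR = 1.6e-07). Between E15.5 and E18.5 the ratio was 13.7 (95% exact counting interval 2.05 to 581), and edgeR's call there (FDR = 0.014) was lost without E15.5 replicate 1 (FDR = 0.05) or E18.5 replicate 2 (FDR = 0.063), and without E15.5 replicates 1 and 2 (FDR = 0.091). Such intervals cover counting error only.

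In the theta class, *Gstt1* was at 12.5, 12.5 and 11 CPM (E15.5), 11.6, 12.9 and 14 (E18.5), 36.5, 38.3 and 36.2 (P5) and 40.2, 38.2 and 41.5 (P8), with no overlap between prenatal and postnatal libraries (log2 fold change 1.61, SE 0.078, edgeR FDR = 5.6e-09 from E18.5 to P5). Its neighbour *Gstt3* rose in steps, at 5.07, 6.74 and 5.31 CPM (E15.5), 9.3, 6.99 and 7.62 (E18.5), 11.3, 10.9 and 10.4 (P5) and 12, 12.8 and 13.8 (P8), and was called from E15.5 to P8 (log2 fold change 1.25, SE 0.14, edgeR FDR = 4.5e-06). No library at a later time-point lay below one at an earlier time-point, although *Gstt3* shares exonic bases with *Gm20441* on the same strand. Its step from P5 to P8 did not pass the FDR threshold (log2 fold change 0.22, SE 0.14, edgeR FDR = 0.29). *Gstt2* rose by 0.46 on the log2 scale from E18.5 to P5 (edgeR FDR = 0.0082).

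The mitochondrial and peroxisomal *Gstk1* was at 14.4, 11.3 and 12.7 CPM (E15.5), 16, 19.5 and 16 (E18.5), 31.2, 33.6 and 31.5 (P5) and 28.8, 27.6 and 31.1 (P8). All postnatal libraries were above all prenatal ones. From E18.5 to P5 it fell just short of the fold change cutoff (log2 fold change 0.99, SE 0.1, edgeR FDR = 2.0e-06), and it was called from E15.5 to P8 (log2 fold change 1.26). *Gstz1*, which also acts in tyrosine breakdown, was between 31.8 and 33.2 CPM in the means of the time-points and passed no threshold.

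All 3 microsomal transferases were higher at P5 than at E18.5 on FDR alone, and 2 were called. Of all genes, 35.4% were higher on FDR alone and 17.5% were called higher. *Mgst2*, among those called, passed the filter on low counts only with its postnatal libraries. *Mgst1* (chr6:138140316-138156755) was at 38.4, 36 and 32.7 CPM (E15.5), 48.9, 55.5 and 43.3 (E18.5), 118, 127 and 134 (P5) and 123, 136 and 127 (P8). Its libraries separated at each step up to P5 (log2 fold change 1.45, SE 0.084, edgeR FDR = 2.2e-08 from E18.5 to P5), and P5 and P8 overlapped. *Mgst2*, which can make leukotriene C4, was at 0.629, 0.334 and 0.669 CPM (E15.5), 0.718, 0.957 and 0.549 (E18.5), 2.38, 2.29 and 3.3 (P5) and 4.35, 4.72 and 2.88 (P8), with every postnatal library above every prenatal one (log2 fold change 1.92, SE 0.32, edgeR FDR = 1.6e-04 from E18.5 to P5). *Mgst3* went from 12.2 ± 1.1 to 21.2 ± 1.14 CPM (log2 fold change 0.89).

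**Figure D5:**
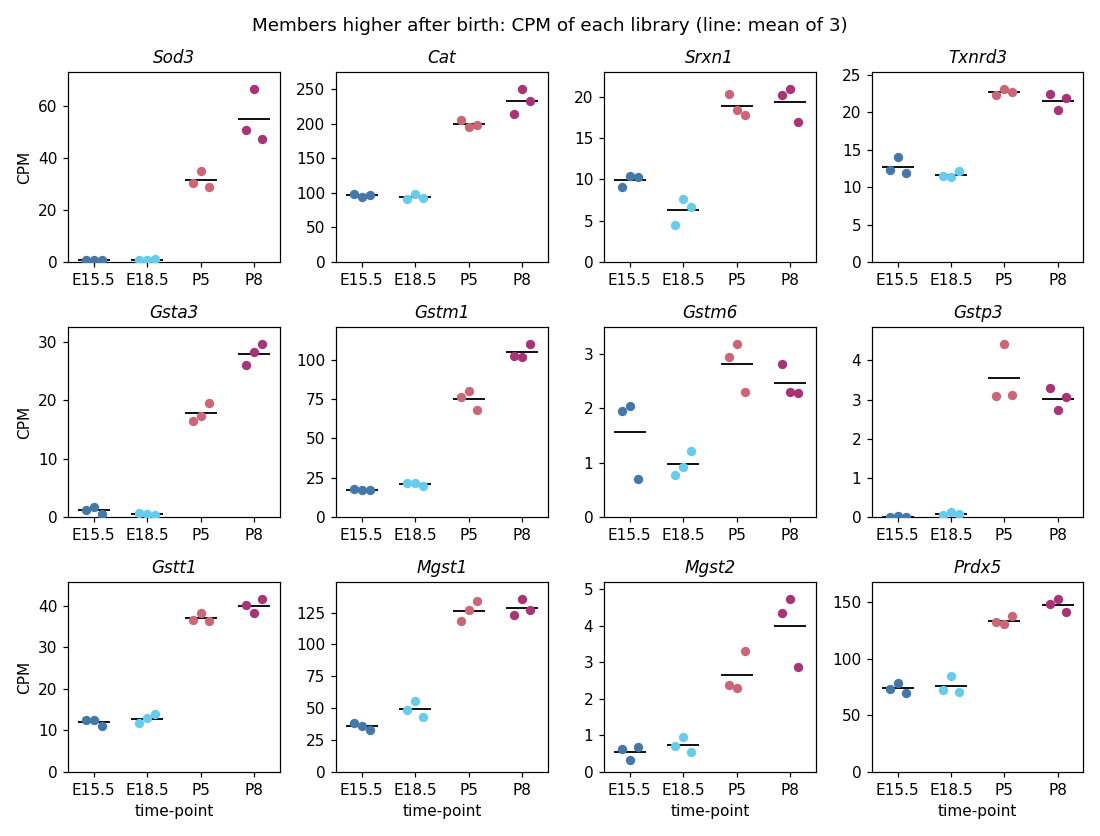
CPM of each library (points, 3 per time-point, with a line at the mean) for 12 members that were higher after birth, with the y axes from 0. *Sod3*, *Gsta3* and *Gstp3* start near 0 before birth, whereas *Cat*, *Prdx5* and *Txnrd3* rise from a level already present (93.8 to 199 CPM for *Cat*).

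Several cell type marker sums were higher in every P5 library than in every E18.5 library. The 5 club cell genes summed to 242 to 287 CPM at E18.5 and 3983 to 4954 at P5, and the 6 alveolar type 1 (AT1) genes to 149 to 231 and 1884 to 2025 CPM. The sums at these 2 time-points were 1034 to 1138 and 2403 to 2519 CPM for the 5 endothelial genes, 67.3 to 75 and 181 to 256 for the 8 macrophage genes, and 1.56 to 5.57 and 58.3 to 72.9 for the 6 neutrophil genes. Not every gene of these lists rose. The club gene *Aldh1a7* fell, from 180.2, 184.7 and 181.2 CPM at E18.5 to 65.6, 67.8 and 73.5 at P5. The club sum at P5 was mostly *Scgb1a1* (3241, 3597 and 3878 CPM). The macrophage gene *C1qb* overlapped, at 18, 14.6 and 14.5 CPM at E18.5 and 18.7, 15.1 and 16.4 at P5. The 5 mesenchyme genes were at 3629 to 3825 and 3652 to 4073 CPM and the 4 smooth muscle genes at 577 to 703 and 583 to 653. Genes within these lists also differed. *Tcf21* rose from 160.2, 146.1 and 113.2 CPM at E18.5 to 288.5, 260.2 and 280.9 at P5. *Pdgfra* fell from 183.5, 181.7 and 171.7 CPM to 144.1, 147.6 and 150.9. The smooth muscle gene *Tagln* rose from 0.8621, 0.8422 and 1.007 CPM to 1.702, 2.147 and 2.055, while *Acta2* overlapped. The part of these cell types in the rise of the members was not tested.

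The wider glutathione, NADPH and NRF2 list held 62 genes beside the members, of which 58 were tested. From E18.5 to P5, 15 were called higher and 2 lower, with a median log2 fold change of 0.33, beside 17.5% and 9.34% of all genes and their median of -0.002. The 2 lower genes were *Cbs* and *Gstcd*. By the edgeR calls 0 passed both cutoffs from E15.5 to E18.5 or from P5 to P8, where on FDR alone 5 were higher and 9 lower, and 9 higher and 2 lower, respectively. Of all genes, 11.6% and 9.87% were higher and lower on FDR alone over the first of these intervals, and 9.75% and 8.21% over the second. From E15.5 to P8, 16 were called higher and 2 lower, beside 20.9% and 11.5% of all genes. On FDR alone 32 were higher and 12 lower from E18.5 to P5, beside 35.4% and 35.7%. Named by size of change, the epoxide hydrolase *Ephx1* was at 4.02, 5.01 and 2.98 CPM at E18.5 and 27.2, 30.4 and 25.2 at P5 (log2 fold change 2.87, SE 0.2, edgeR FDR = 7.6e-08), and the oxidative stress gene *Osgin1* at 1.58, 0.861 and 0.824 and 5.75, 5.26 and 4.17 CPM (log2 fold change 2.31). Both were higher in every P5 library than in every E18.5 library.

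The next in size were *Alox5ap*, needed for leukotriene synthesis (log2 fold change 2.23), the selenium carrier *Selenop* (2.02), and the transcription factor genes *Nfe2* (1.94) and *Mafk* (1.94), the latter a small MAF partner of NRF2. The gamma-glutamyl transferase *Ggt5* rose by 1.61. Cystathionine beta-synthase, *Cbs*, a source of cysteine for glutathione, fell by 1.8, from 2.11, 2.68 and 2.84 to 0.546, 0.619 and 0.888 CPM. *Keap1*, the inhibitor of NRF2, and the NADPH source *G6pdx* were not called in any of these comparisons.

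Among 34 enzymes that produce oxidants, 26 were tested, and 12 were called higher and 1 lower from E18.5 to P5, beside 17.5% and 9.34% of all genes. Their median log2 fold change was 0.97, and that of all genes -0.002. From E15.5 to E18.5, 1 (*Aoc3*) was called higher, as was 1 (*Aox3*) from P5 to P8, where 1.59% and 2.88% of all genes were. From E15.5 to P8 the counts were 16 higher and 1 lower, beside 20.9% and 11.5%. *Cybb*, the catalytic subunit of the phagocyte NADPH oxidase, was at 4.58, 5.3 and 4.93 CPM at E18.5 and 84.2, 54.6 and 52.7 at P5 (log2 fold change 3.79, SE 0.2, edgeR FDR = 1.3e-08), and *Ncf4*, which codes for a cytosolic subunit of it, rose by 2.97 on the log2 scale. These are genes of phagocytes, whose marker sums were higher too, as given above. The part of phagocytes in the rises of *Cybb* and *Ncf4* was not tested. The purine oxidase *Xdh* rose by 2.85, the aldehyde oxidase *Aox3* by 3.0, the NADPH oxidase activator *Noxa1* by 2.72 and the elastin crosslinking enzyme *Loxl1* by 2.0. Its relative *Lox* fell, from 763, 653 and 606 to 136, 162 and 143 CPM (log2 fold change -2.11, SE 0.091, edgeR FDR = 2.7e-09).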

How the data were processed

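Whole lungs were collected at each time-point and their mRNA was sequenced from TruSeq libraries. The authors aligned the reads to mm10 with TopHat2 2.1.1 and Bowtie2 2.3.4 and counted them on Gencode genes with HTSeq 0.10.0. They deposited raw counts of 16152 genes kept as expressed and, for 51825 genes, CPM values in which counts are divided by the mapped reads of the library. The PSI values, in percent, were deposited by the authors from VAST-TOOLS. Reads were mapped uniquely, and those without a unique place or gene were not kept as counts, which affects overlapping genes and close paralogues. How HTSeq treated strand is not given in the sources used here.

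The 15994 genes that reached 1 CPM in 3 or more libraries were tested on the deposited counts with edgeR 4.0.16 (R 4.3.3) after TMM normalization, in a quasi-likelihood fit of all 12 libraries with time-point as the only term. SE was the absolute log2 fold change divided by the square root of F. Alternatives used DESeq2 1.42.0, limma 3.58.1 (voom), other normalizations and filters, a fit of the 2 time-points compared, a replicate block, edgeR's glmTreat at a log2 fold change of 0.5, and libraries left out. The pipeline was tested on simulated counts. The members and lists were chosen with earlier results of these data known, and no p-value was adjusted over the members alone.

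Every member was accounted for, with values of each library for members called in an adjacent comparison or from E15.5 to P8 and for the 10 with the highest mean CPM. Other genes of the 2 wider lists were named where called, at most 8 per list, by the size of their change between E18.5 and P5 among genes with a mean of at least 1 CPM. A gene that this rule names is not reported here. *Keap1*, *G6pdx*, *Gstcd* and *Aoc3* were named beside this rule, chosen after their values were seen. Exon lengths and overlaps came from GENCODE's GRCm38 annotation, and 0 columns of the count and CPM tables lacked a matching sample. Mean chi-square per gene between libraries of a time-point was 13.0 to 75.4, so no library was a copy of another. Depth sets counting precision, and *Gstp3* rested on the fewest reads. *Gsta3*, *Mgst2*, *Sod3* and *Gstm6* also had means below 1 CPM at E18.5, at 0.437, 0.742, 0.91 and 0.969. A counting interval was computed for *Gstp3* alone.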

Additional observations from a re-analysis of the deposited data

How the results depend on the processing

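Of the 33 calls of a member in a comparison, 751 recomputed values kept their direction, 716 stayed called and 35 did not. With glmTreat a value counted as called on its FDR alone, and elsewhere both cutoffs were required. The number of members called moved beyond 1.5 times in these cases. From E15.5 to E18.5, 3 members were called, against 1 with edgeR's glmTreat, 1 with the 2 time-points fitted alone, 1 without the 2 libraries highest in heart muscle genes (an alternative added after seeing the data) and 12 on FDR alone, and the count was between 1 and 5 with each library left out in turn. From E18.5 to P5, 12 were called, against 19 with glmTreat and 34 on FDR alone, and between 11 and 13 with each library left out. From P5 to P8, 2 were called, against 1 with glmTreat, 0 without the 3 libraries highest in thymus genes and 12 on FDR alone. From E15.5 to P8, 16 were called, against 28 with glmTreat and 39 on FDR alone, and between 14 and 18 with each library left out. glmTreat and FDR alone use other cutoffs by construction, and dropping libraries leaves fewer samples. For the other differences the cause was not tested. All-gene medians moved by less than 0.1 on the log2 scale under each scaling.

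Calls also lost under other alternatives included *Gsta3* from E15.5 to E18.5 with limma-voom (-1.28, limma FDR = 0.086), *Gsto1* from E18.5 to P5 with limma-voom (1.25, limma FDR = 0.095), and, under library size scaling without TMM factors, *Srxn1* (0.98) and *Sod2* (0.94) from E15.5 to P8 and *Txnrd3* (0.98) from E18.5 to P5. *Sod2* over that period was also lost with limma-voom (0.98). *Srxn1* from E15.5 to P8 was at 0.9 without the 3 thymus-gene libraries and 0.98 without the 2 heart-gene libraries, and *Gsta3* from E15.5 to E18.5 at -1.01 (edgeR FDR = 0.082) and -0.24 (edgeR FDR = 0.73). Without the 2 heart-gene libraries, *Gstm6* (0.74 with all libraries, 1.9 without) and *Mgst3* (0.92 and 1.25) were called from E15.5 to P8, as was *Gsta4*. Calls lost with 1 library left out are given in the report for *Gpx2*, *Gsta3*, *Gsto1*, *Gstp3*, *Srxn1* and *Sod2*.

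The replicate numbers did not pair the samples. Of 18 same-numbered pairs of libraries, 3 had a correlation of their deviations from the time-point means above 0.1 (range -0.343 to 0.301). With the number as a replicate block, 3, 12, 2 and 15 members were called in the 4 comparisons, *Sod2* from E15.5 to P8 being the call that was lost, at a log2 fold change of 1 after rounding.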
